A study of Saccharomyces cerevisiae with 6 samples.

Results

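Msn2 and Msn4 are paired zinc-finger activators of the general stress response of budding yeast (Saccharomyces cerevisiae), and they are described here with 8 of their well-known target genes. The members are the probe sets annotated to MSN2, MSN4, HSP12, CTT1, DDR2, GND2, XBP1, SOL4, MSC1 and PNC1. These are 10 of 5656 genes named by a probe set with 1 symbol, each has 1 probe set, and all 10 passed the filter on dim probe sets. The targets leave out trehalose and glycogen genes. Total RNA of 6 samples was read on single-sample oligonucleotide arrays, 3 of a strain with a K91A allele of histone H4 (lysine 91 replaced by alanine) and 3 of a strain with wild-type histone H4 (WT). All were grown in YPD, a rich glucose medium, and collected during exponential growth, and the labels name no stress treatment. The array titled K91A 3 has a description that calls it a WT replicate. It was kept with K91A by its title, and values without it are given where they alter a call.

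In growing cells, protein kinase A, which is switched on by Ras and cyclic AMP in rich glucose medium, keeps Msn2 and Msn4 phosphorylated and largely in the cytoplasm. Under stress or nutrient loss they move into the nucleus and bind the stress response element, a short sequence with the core AGGGG, upstream of a large set of genes. Much of their control therefore acts on the proteins and not on the amount of their mRNA, although MSN4 itself is known as a stress-inducible gene.

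Levels below are log2(intensity + 16) after quantile normalization, and differences are K91A minus WT on this log2 scale. The deposited medians ran from 745 to 3116.5 intensity units per array, with K91A 3 the lowest. No detection calls came with the values, and 3 arrays per strain limit the precision. Of 6931 probe sets tested, 30.2% had a limma adjusted p under 0.05, 15.4% as higher and 14.8% as lower in K91A. The median difference over all of them was -0.07. The ratio of 5' to 3' signal of actin, a measure of RNA integrity and labelling, was 0.843 to 0.877 on the K91A arrays and 0.110, 0.114 and 0.365 on WT 1, WT 2 and WT 3. Its part in the results below was not tested. The strains also differed at the marker genes TRP1 (5.28) and ADE2 (-5.73), so the histone allele is not shown to be their only difference. Nothing in the labels says that replicates were separate cultures, and the p-values reflect the spread among these arrays alone, which may be technical.

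Several stress targets rose in K91A, while neither regulator passed the test. Of the 8 targets, GND2, XBP1, MSC1, DDR2 and HSP12 were higher in K91A, and 0 of the 10 members were lower. These 5 calls of 10 compare with 15.4% of all probe sets called higher. The groups did not overlap for the same 5 genes, where this held with K91A higher for 23.7% of all probe sets, and with either strain higher for 51.1%. All 10 differences were above 0, as were 46.6% of those of all probe sets, and their median was 0.64. In bulk RNA, a higher signal in every cell and one in a fraction of the cells cannot be told apart.

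Neither regulator passed. MSN2 had log2 levels of 11.53, 11.19 and 11.73 on K91A 1, 2 and 3, and of 11.41, 11.24 and 11.10 on WT 1, 2 and 3. The ranges overlap, with K91A 2 below WT 1 and WT 2. The difference of MSN2 was 0.24 (95% interval -0.26 to 0.73, limma adjusted p = 0.418). MSN4, the stress-inducible partner, had 12.71, 12.28 and 11.67 on the K91A arrays and 12.01, 12.39 and 11.54 on the WT arrays. K91A 3 and WT 3 were the lowest of their groups for this gene. Its difference was also 0.24 (interval -0.55 to 1.03, adjusted p = 0.614). The intervals leave room for a rise of MSN4 by up to 1.03 and of MSN2 by up to 0.73, so equal levels are not shown. Without K91A 1 the MSN4 difference was -0.01.

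**Figure D1:**
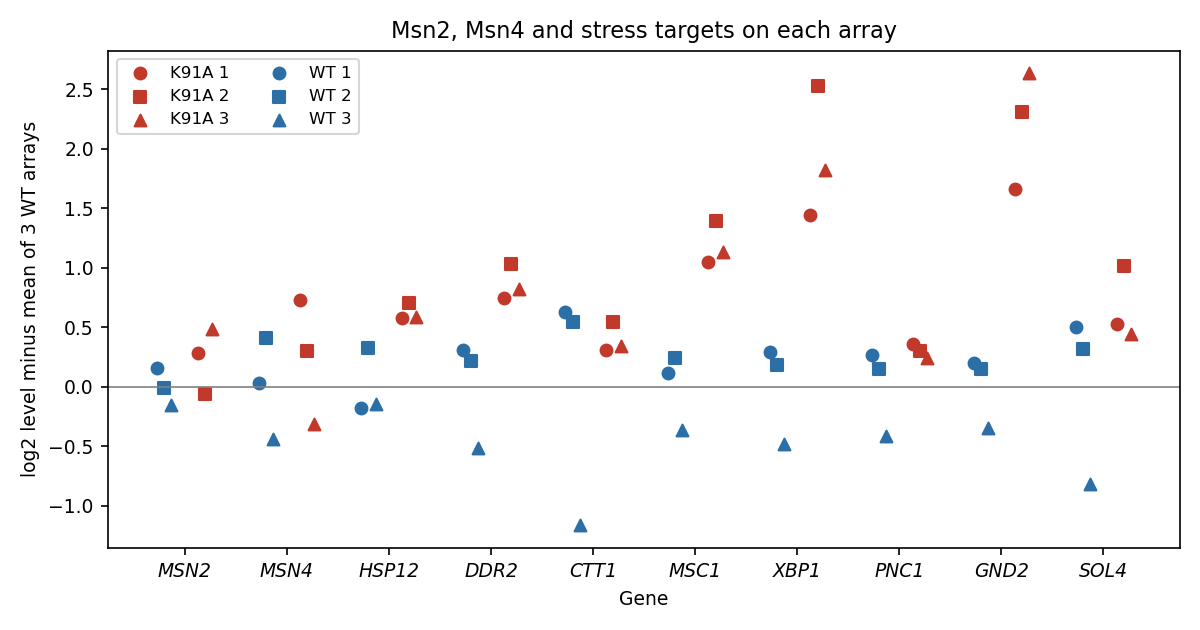
Log2 level of each of the 10 genes on each array, minus the mean of the 3 WT arrays of that gene; red marks K91A, blue marks WT, and the shape gives the replicate number. For GND2, XBP1, MSC1, DDR2 and HSP12 all red points lie above all blue ones, while CTT1, SOL4 and PNC1 have 1 low point, WT 3, and otherwise mixed groups.

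With K91A 3 kept in its titled group, GND2 had the largest difference among the members; without that array XBP1 had 1.95 and GND2 had 1.94. GND2 encodes the minor form of 6-phosphogluconate dehydrogenase, an NADPH-producing step of the pentose phosphate pathway. The deposited intensities were 5279, 6893 and 4166 on the K91A arrays and 2312, 2598 and 1124 on the WT arrays. After normalization the levels were 12.24, 12.88 and 13.21 against 10.78, 10.73 and 10.23. Each K91A array thus lay above each WT array by over 1.4 log2 units. The difference was 2.20 (SE 0.30, interval 1.49 to 2.91, limma adjusted p = 0.00372), a 4.59-fold higher signal.

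XBP1 encodes a stress-induced repressor with a DNA-binding domain like that of the cell cycle regulators Swi4 and Mbp1, known to act on G1 cyclin genes. Its levels were 11.11, 12.18 and 11.48 on the K91A arrays and 9.95, 9.84 and 9.18 on the WT arrays. K91A 2 was the highest array and WT 3 the lowest. The difference was 1.93 (SE 0.34, interval 1.12 to 2.74, adjusted p = 0.00859), or 3.81-fold. On WT 1, 2 and 3 the probe set lay at the 31.2, 29.4 and 19.7 percentile of its array, in the dimmer part of each. The measured fold may be an understatement if that signal is background. With a filter at the median, XBP1 was left out as dim and not tested.

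MSC1, named for a role in meiotic recombination, had levels of 13.89, 14.24 and 13.98 on the K91A arrays and 12.96, 13.09 and 12.48 on the WT arrays. The strains were separated by more than the range within either group. The difference was 1.19 (SE 0.21, interval 0.69 to 1.69, adjusted p = 0.00878), or 2.28-fold.

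The calls of GND2, XBP1 and MSC1 held without any 1 array. On the values as deposited, however, none of them passed, at 1.49 (adjusted p = 0.125), 1.32 (0.206) and 0.29 (0.746). The median of all probe sets was then -0.82, so relative to it the 3 genes lay at 2.31, 2.14 and 1.12. With K91A 3 also left out, a setting chosen after seeing the data, GND2 (1.66, adjusted p = 0.00656) and XBP1 (1.85, adjusted p = 0.000467) passed and MSC1 (0.64, adjusted p = 0.356) did not.

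DDR2 and HSP12 encode small proteins whose transcripts are classic readouts of Msn2 and Msn4 activity. DDR2, first found as a DNA damage-responsive gene, had levels of 15.24, 15.52 and 15.31 on the K91A arrays and 14.79, 14.70 and 13.97 on the WT arrays. WT 3 was set well below the other WT arrays. The difference was 0.86 (SE 0.23, interval 0.33 to 1.40, adjusted p = 0.0289), or 1.82-fold. HSP12, a small hydrophilic heat shock protein that binds membranes, had 14.88, 15.01 and 14.89 against 14.12, 14.63 and 14.16. Here WT 2 came nearest to the K91A arrays. The difference was 0.62 (SE 0.16, interval 0.24 to 1.01, adjusted p = 0.0289), or 1.54-fold. On the K91A arrays DDR2 lay at percentiles 99.75 to 99.92 and HSP12 at 99.19 to 99.43. Quantile normalization leaves little room for a difference so near the top of the scale. Both differences were nonetheless smaller under median centring, as given below, so their size is uncertain. As deposited, WT 2 had the highest intensity of all arrays for DDR2 (47882) and for HSP12 (45620).

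These 2 calls were less stable than the other 3. HSP12 no longer passed when K91A 1 (adjusted p = 0.0655), K91A 3 (0.0557), WT 1 (0.109) or WT 3 (0.0794) was left out. The same held for DDR2 with K91A 1 (adjusted p = 0.0590), K91A 2 (0.0655), K91A 3 (0.0514) or WT 2 (0.0616) left out. Under median centring in place of quantile normalization, neither HSP12 (0.33, adjusted p = 0.396) nor DDR2 (0.60, adjusted p = 0.157) passed. As deposited both changed sign, to -0.32 and -0.04, where the median of all probe sets was -0.82. Both genes are short, with 330 and 186 coding nucleotides, and the difference between the strains moved with length. The 200 protein-coding genes nearest to HSP12 in length had a median difference of -0.30, and those nearest to MSN2, the longest member with 2115 nucleotides, had 0.29. After removal of the trend on coding length from every array, a setting chosen after seeing the data, the differences were 0.96 (adjusted p = 0.00637) and 1.20 (adjusted p = 0.00829). In that setting GND2 (2.14, adjusted p = 0.00369), XBP1 (1.79, adjusted p = 0.00939) and MSC1 (1.12, adjusted p = 0.0082) passed as well.

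**Figure D2:**
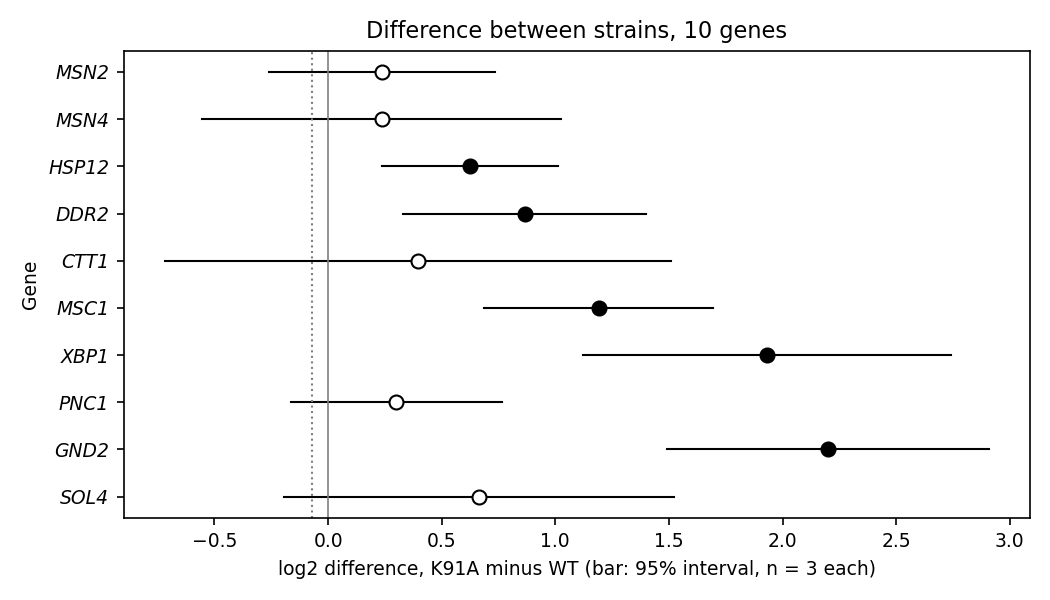
Log2 difference, K91A minus WT, of the 10 genes with 95% intervals from limma (n = 3 arrays each); filled points passed at an adjusted p of 0.05, and the dotted line is the median of all 6931 probe sets (-0.07). The filled points run from 0.62 for HSP12 to 2.20 for GND2, and the interval of CTT1 is the widest.

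The remaining targets, CTT1, SOL4 and PNC1, did not pass. CTT1, the cytosolic catalase that breaks down hydrogen peroxide, had levels of 12.43, 12.66 and 12.46 on the K91A arrays and 12.75, 12.66 and 10.96 on the WT arrays. WT 1 was thus the highest of all 6 arrays and WT 3 the lowest, by over 1.4 log2 units. The difference was 0.40 (interval -0.72 to 1.51, adjusted p = 0.549), and without WT 3 it was -0.18 (adjusted p = 0.472).

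SOL4, a 6-phosphogluconolactonase of the pentose phosphate pathway, had 13.90, 14.39 and 13.82 against 13.88, 13.69 and 12.56. Again the WT 1 and WT 2 arrays lay near the K91A arrays and WT 3 did not. The difference was 0.66 (interval -0.19 to 1.52, adjusted p = 0.202), and 0.25 without WT 3 (adjusted p = 0.420). PNC1 encodes nicotinamidase, which clears an inhibitor of the histone deacetylase Sir2. It had 14.52, 14.46 and 14.40 on the K91A arrays and 14.43, 14.31 and 13.75 on the WT arrays. The difference was 0.30 (interval -0.16 to 0.76, adjusted p = 0.277), and 0.09 without WT 3 (adjusted p = 0.598).

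WT 3 stood apart from the other WT arrays across the whole set. It was the lowest of all 6 arrays for 7 of the 8 targets, where this held for 22.5% of 6918 probe sets with a value on every array. The median of the 8 targets, relative to the WT mean of each gene, was 0.28 on WT 1, 0.23 on WT 2 and -0.45 on WT 3. On K91A 1, 2 and 3 it was 0.66, 1.02 and 0.70, and K91A 2 held the highest K91A level for 6 of the 8. The median difference of the 10 members was 0.64 with all arrays and 0.40 without WT 3, where 4 of the 10 were called. WT 3 also had the highest actin 5' over 3' ratio of the WT arrays (0.365 against 0.110 and 0.114). The part of this ratio in the WT 3 levels was not tested.

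**Figure D3:**
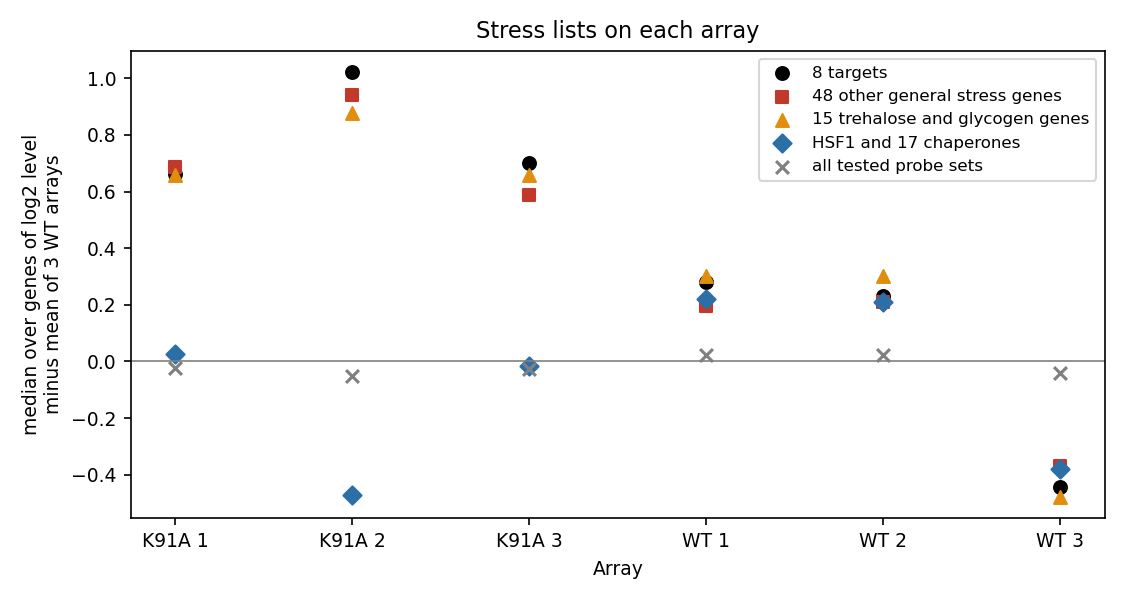
For each array, the median over a gene list of the log2 level minus the mean of the 3 WT arrays. The 8 targets, the other general stress genes and the trehalose and glycogen genes lie lowest on WT 3 and highest on K91A 2, whereas HSF1 and the chaperones lie lowest on K91A 2 and WT 3.

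The targets with a sister gene of related function were set beside it, and the ratio of each pair was taken within each array. With 3 arrays per strain, no exact test of such a ratio could pass a threshold of 0.05. GND1, the major 6-phosphogluconate dehydrogenase, had levels of 12.93, 11.95 and 13.08 on the K91A arrays and 13.38, 13.16 and 13.50 on the WT arrays, a difference of -0.70 (limma adjusted p = 0.133). The mean within-array ratio of GND2 to GND1 differed by 2.90 log2 units, K91A minus WT. SOL3, the sister of SOL4, had a difference of -0.56 (adjusted p = 0.0654), and the ratio of SOL4 to SOL3 differed by 1.22. HOR7, a small stress gene related to DDR2, was among the brightest probe sets on every array, with a difference of 0.08 (adjusted p = 0.553) whose sign turned under median centring (-0.17) and as deposited (-0.81). HOR7, with 180 coding nucleotides, passed only with the length trend removed (0.41, adjusted p = 0.0301). The ratio of DDR2 to HOR7 differed by 0.79. HOR7 had the same normalized level, 15.56, on K91A 1, WT 1 and WT 2, near the top of the scale where quantile normalization leaves little room for a difference, so the size of this ratio is uncertain.

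Of the catalases, CTA1 passed and CTT1 did not. CTA1, the peroxisomal catalase, had levels of 11.37, 12.46 and 11.90 on the K91A arrays and 10.14, 10.13 and 9.59 on the WT arrays. It rose by 1.96 (SE 0.32, limma adjusted p = 0.00621), and the ratio of CTT1 to CTA1 differed by -1.57. The ratio of MSN4 to MSN2 differed by 0.00024, with an SD of 0.69 among the K91A arrays and 0.37 among the WT arrays. With this spread, equal ratios are not shown. Of these 5 ratios, 4 did not overlap between the strains. For these 4 the two-sided exact permutation p was 0.1, the smallest that 3 against 3 can give. It was 0.125 after Benjamini-Hochberg adjustment over 5 pairs. Among all single probe sets, 51.1% did not overlap, with either strain higher. The share among ratios of other gene pairs was not computed, so the count is a description only. The exact p of the ratio of MSN4 to MSN2 was 1.

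**Figure D4:**
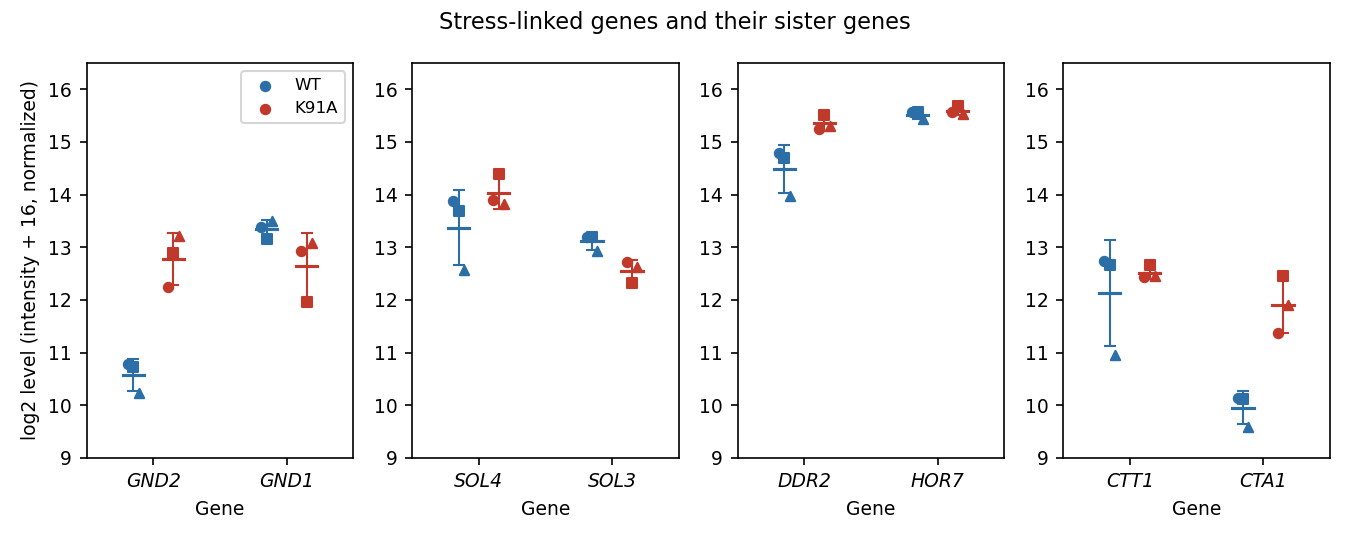
Log2 levels of 4 targets and their sister genes by strain; points are arrays (the shape gives the replicate number), horizontal lines are means and bars are SD (n = 3 each). GND2 is higher in K91A while GND1 is not, and CTA1 is higher in K91A while CTT1 has 1 low array, WT 3.

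In the pentose phosphate pathway, of which GND2 and SOL4 are steps, 11 genes were tested, with both members counted. TKL2 and NQM1 are also counted among the other general stress genes below. Limma called 3 as higher (GND2, ZWF1 and TKL2) and 1 as lower, against 15.4% and 14.8% of all probe sets. The median was -0.04. ZWF1, glucose-6-phosphate dehydrogenase and the entry step, had levels of 13.44, 13.85 and 13.53 against 11.19, 11.32 and 11.98 and rose by 2.11 (limma adjusted p = 0.00301). TKL2, the minor transketolase and itself a stress gene, rose by 1.38 (adjusted p = 0.0175), and its other probe sets also passed, at 1.80 and 2.70. RKI1, ribose-5-phosphate isomerase, fell by 1.79 (adjusted p = 0.00534). TKL2 no longer passed without WT 2 (adjusted p = 0.0617) or WT 3 (0.0508).

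Around PNC1, 14 genes of NAD synthesis and salvage were tested. Of these, 1 was higher and 2 were lower, against 15.4% and 14.8% of all probe sets. The differences of 3 were above 0, as were 46.6% of those of all probe sets, and the median was -0.46. BNA2, the first enzyme of the pathway from tryptophan, had levels of 12.27, 12.27 and 12.56 against 10.80, 10.82 and 10.91 and rose by 1.52 (limma adjusted p = 0.00269). BNA7, which acts on the next step, fell by 0.87 (adjusted p = 0.0179), and the nucleoside hydrolase URH1 fell by 0.85 (adjusted p = 0.0211). BNA6 had -0.47 and did not pass (adjusted p = 0.0661). BNA7 no longer passed with K91A 1 (adjusted p = 0.0521), WT 1 (0.0602) or WT 2 (0.0815) left out, and URH1 with K91A 1 (0.0618), WT 1 (0.0899) or WT 2 (0.0769) left out.

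Other genes of the general stress response showed the same direction as the members. Of 48 tested, 20 were higher and 0 lower in K91A, against 15.4% and 14.8% of all probe sets, and 47 of the 48 differences were above 0. Their median was 0.70. ECM4, a glutathione transferase, had levels of 13.35, 13.94 and 13.57 against 11.70, 11.81 and 11.36 and rose by 2.00 (limma adjusted p = 0.00257). GRE1, a hydrophilin induced by osmotic stress, rose by 1.87 (adjusted p = 0.00348). MOH1, a gene linked to stationary phase, rose by 2.06 (adjusted p = 0.00921), and AMS1, the vacuolar alpha-mannosidase, by 1.18 (adjusted p = 0.0084). These 4 calls held without any 1 array.

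The count of this list was 13 without K91A 1, 10 without WT 1, 11 without WT 2 and 14 without WT 3. It was 10 under median centring and 0 on the values as deposited, where the median of the list was -0.20 and that of all probe sets -0.82. WT 3 was the lowest of all 6 arrays for 42 of the 48 genes. Without WT 3 the median of the list was 0.53, and how many differences stayed above 0 was not counted. The trehalose and glycogen genes, which many studies count among Msn2 and Msn4 targets, had 4 of 15 higher and 0 lower, against 15.4% and 14.8% of all probe sets. Their median was 0.75, and WT 3 was the lowest array for all 15. GDB1, the glycogen debranching enzyme, led them at 1.75 (adjusted p = 0.00413). ATH1 (1.28, adjusted p = 0.0213), TSL1 (1.15, adjusted p = 0.0431) and TPS3 (0.77, adjusted p = 0.0496) also passed.

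The trehalose and glycogen count fell to 1 without WT 1 or WT 2 and to 2 without K91A 3 or WT 3, and the median without WT 3 was 0.45. Of the named genes, ATH1 no longer passed with WT 1 (adjusted p = 0.0638), WT 2 (0.0505) or WT 3 (0.0576) left out. TSL1 was lost without K91A 1 (0.101), K91A 2 (0.0862), K91A 3 (0.0606), WT 1 (0.0547) or WT 2 (0.0709). TPS3 was lost without K91A 1 (0.112), K91A 3 (0.113), WT 1 (0.101), WT 2 (0.0979) or WT 3 (0.112). Under median centring and with the length trend removed, TSL1 (adjusted p = 0.105 and 0.0909) and TPS3 (0.150 and 0.122) did not pass. The tested genes of this list are long, with a median of 2256 coding nucleotides. With the length trend removed, a setting chosen after seeing the data, 2 of the 15 were called and their median was 0.56. The medians of the members and of the other general stress genes were then 0.92 and 0.87.

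**Figure D5:**
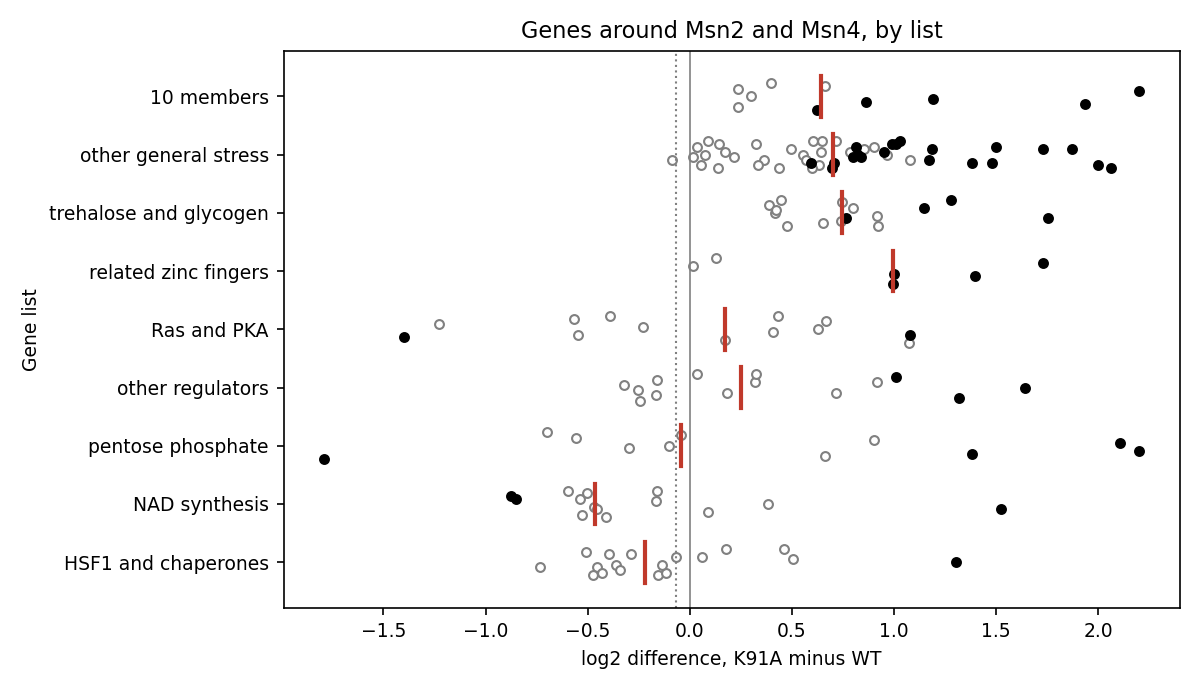
Log2 difference, K91A minus WT, of each tested gene by list; filled points passed limma's test (adjusted p under 0.05), red lines are list medians and the dotted line is the median of all probe sets. The members, the other general stress genes and the trehalose and glycogen genes have medians of 0.64, 0.70 and 0.75, against -0.22 for HSF1 and the chaperones. Without K91A 2 these medians were 0.54, 0.64, 0.67 and 0.01. With the length trend removed they were 0.92, 0.87, 0.56 and -0.19 (17 tested in the last list).

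Heat shock factor and its chaperone targets form the other main branch of the heat response. Of HSF1 and 17 chaperone genes, HSF1 alone passed, where 30.2% of all probe sets did, and the median was -0.22. HSF1 had levels of 11.32, 12.20 and 12.42 against 10.79, 10.54 and 10.70, a rise of 1.30 (limma adjusted p = 0.0203). HSF1 no longer passed without WT 1 (adjusted p = 0.0630), WT 2 (0.0782) or WT 3 (0.0546). STI1 (-0.40, adjusted p = 0.112), AHA1 (0.46, adjusted p = 0.133) and BTN2 (-0.74, adjusted p = 0.173) followed by p and did not pass. Without K91A 2, 2 of the 18 were higher and the median was 0.01, so its sign rested on that array. Without WT 3, 2 were lower and the median was -0.37. The heat shock genes HSP26, HSP42, HSP78, HSP104 and SSA4 were counted among the other general stress genes and not in this list. Of them HSP26 passed (0.71, limma adjusted p = 0.0228). HSP42 (0.09), HSP78 (-0.09), HSP104 (0.33) and SSA4 (0.33) did not. The difference between the list of HSF1 and chaperones and the stress targets was not tested.

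Upstream of Msn2 and Msn4, 13 genes of the Ras and protein kinase A pathway were tested. Of these, 1 was higher and 1 lower, against 15.4% and 14.8% of all probe sets, with a median of 0.17. RAS1, one of the paired Ras GTPases that activate cyclic AMP synthesis, had levels of 11.01, 10.21 and 10.56 against 11.90, 12.03 and 12.04 and fell by 1.40 (limma adjusted p = 0.00745). TPK2, a catalytic subunit of protein kinase A, had 13.05, 13.30 and 13.07 against 12.28, 12.11 and 11.81 and rose by 1.08 (adjusted p = 0.00956).

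Among 14 other regulators of these factors, 3 were higher and 0 lower, against 15.4% and 14.8% of all probe sets, with a median of 0.25. RIM15, a kinase that acts through the stress factors and Gis1 when nutrients run out, had levels of 12.30, 12.09 and 12.27 on the K91A arrays. On the WT arrays it had 10.69, 10.25 and 10.81, and the difference was 1.64 (limma adjusted p = 0.00331). SCH9, a growth-promoting kinase that opposes Rim15, rose by 1.01 (adjusted p = 0.0086). PSR2, a phosphatase linked to Msn2 activation, rose by 1.32 (adjusted p = 0.0209). RIM15 held without any 1 array, whereas the SCH9 call ended without WT 2 (adjusted p = 0.0501) and that of PSR2 without K91A 1 (0.0618), WT 1 (0.0773) or WT 2 (0.0741).

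Of 6 zinc-finger factors known or thought to bind elements like those of Msn2 and Msn4, 4 were higher and 0 lower, against 15.4% and 14.8% of all probe sets, with a median of 1.00. USV1 (1.73, limma adjusted p = 0.017), also one of the general stress genes, had levels of 12.61, 13.89 and 12.86 against 11.54, 11.70 and 10.93. GIS1, a factor of post-diauxic genes, had 1.40 (adjusted p = 0.0296), its relative RPH1 had 1.00 (adjusted p = 0.0487) and RGM1 had 0.99 (adjusted p = 0.0224). On the WT arrays GIS1, RPH1 and RGM1 had mean levels of 10.08, 10.19 and 10.07, nearly as dim as XBP1 (9.66). COM2 (0.13) and the glucose repressor MIG1 (0.02) did not pass. Each of the 4 calls ended without at least 1 WT array. The adjusted p was up to 0.0543 for USV1 (without WT 1 or WT 3), 0.0836 for GIS1 (without any 1 of the WT arrays) and 0.154 for RPH1 (without any 1 of the WT arrays, K91A 2 or K91A 3). For RGM1 it was up to 0.0918 (without WT 1, WT 2 or K91A 1). RPH1 also failed with the length trend removed (adjusted p = 0.0878).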

How the data were processed

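The deposited table gave 1 linear intensity per probe set and array, and the software and scaling behind these intensities are not given in the sources used here. Samples were grouped by title. Gene names came from the platform annotation, brought up to date through Entrez identifiers in a RefSeq table (R64) that also gave coding lengths. Of 9335 probe sets, 60 controls, 33 with fewer than 2 values in a group and the 2311 dimmest (25%) were left out. Values were set to log2(intensity + 16) and quantile normalized. K91A was compared with WT in limma 3.58.1 (under R 4.3.3; lmFit, then eBayes with the trend option), with Benjamini-Hochberg adjustment over 6931 probe sets and a threshold of 0.05. A gene with more than 1 tested probe set was represented by that of highest mean. Ratios of sister genes were compared with an exact permutation test.

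The members and lists were chosen with earlier results of these data known, and list counts are descriptions without a list test. The genes named are the members, their sister genes, up to 4 genes of each list by smallest p, all calls among the regulators, and the 5 genes most like the targets' mean. Exceptions are marked. Alternatives were the replicate block, K91A 3 as WT, each array left out, pseudocounts of 1 and 64, values as deposited, median centring, other filters, no trend and array weights. Settings added later are named as such. The procedure was tested on simulated data with independent noise for each probe set and array. These data held no shift shared by an array and no length trend, so that test cannot speak to either.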

Additional observations from a re-analysis of the deposited data

How the results depend on the processing

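The 5 higher calls among the 10 members became 3 to 4 when 1 array was left out, 3 under median centring, 2 on the values as deposited with K91A 3 left out, and 0 as deposited or with K91A 3 counted as WT. No member was called lower in any setting, although some differences were negative. Over all probe sets the 2091 calls became 841 to 2300 with 1 array left out, 703 as deposited, 1236 as deposited with K91A 3 left out and 0 with K91A 3 counted as WT. They became 1372 of 4621 with a filter at the median, which tests fewer probe sets, and 886 with WT 1 and WT 2 averaged. With that averaging 4 of the 10 members were called, and DDR2 was not (limma adjusted p = 0.0532). The other general stress genes then had 11 calls and the trehalose and glycogen genes 1. The averaging, the removal of K91A 3 from the deposited values, protein-coding genes alone and the length correction were chosen after seeing the data.

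As deposited, signs turned for MSN2 (-0.44), MSN4 (-0.60), HSP12 (-0.32), CTT1 (-0.39), DDR2 (-0.042), SOL4 (-0.26), PNC1 (-0.61), TPS3 (-0.027), HOR7 (-0.81) and FMP46 (-0.0094), where the median of all probe sets was -0.82. With K91A 3 also left out they turned for MSN2 (-0.079), PNC1 (-0.28) and HOR7 (-0.49), with a median of -0.32. Signs also turned for HOR7 under median centring (-0.17), MSN2 with K91A 3 counted as WT (-0.0077), MSN4 without K91A 1 (-0.0090) and CTT1 without WT 3 (-0.18) or with array weights (-0.13). Over the settings that leave out 1 array, MSN4 ran from -0.0090 to 0.50 and CTT1 from -0.18 to 0.70. The causes were not tested. Among the other named genes with a call, RAS1 (-2.10, adjusted p = 0.0357) and RKI1 (-2.48, adjusted p = 0.0125) passed on the values as deposited, and the rest did not.

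With no filter RPH1 (adjusted p = 0.0538) and TPS3 (0.0521) did not pass, nor did HSP12 (0.0562) and TSL1 (0.0501) with no mean-variance trend or HSP12 with array weights (0.0625).

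Over the tested probe sets, the deviations of same-numbered arrays from their group means correlated at 0.167, -0.152 and -0.0052. These values do not settle whether the replicate numbers pair the samples. With the replicate block limma called 1535 probe sets and 5 members, and the calls of RPH1 (adjusted p = 0.0842), TPS3 (0.101), URH1 (0.0592), GCY1 (0.0551) and FMP46 (0.0671) ended. Each member has 1 probe set, so averaging probe sets could not alter its value. The adjusted p of the GND2, XBP1 and MSC1 differences ran from 0.00127 to 0.404, 0.000467 to 0.327 and 0.00336 to 0.746 over these settings. No background measure came with the intensities, so which dim values are signal is unknown. Of 20 alternative settings, XBP1, GIS1, RPH1, PSR2 and CTA1 were tested in 19 and RGM1 in 18.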

Other observations

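The genes whose levels over the 6 arrays were most like the mean standardized level of the 8 targets were RPM2, GCY1, HEL1, FMP46 and YRO2, with Pearson's r of 0.999, 0.999, 0.998, 0.997 and 0.996 among 4995 protein-coding genes. The points share the same arrays, and the group difference and the low WT 3 array both enter r, so it is a description only. Their log2 differences, K91A minus WT, were 1.21, 1.01, 1.08, 0.82 and 1.54. GCY1 is one of the 48 general stress genes, and YRO2 encodes a plasma membrane protein. All but HEL1 (adjusted p = 0.0504) passed limma's test, with adjusted p from 0.0424 to 0.0494, and each of those 4 calls ended when any 1 of at least 5 of the 6 arrays was left out.

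Probe sets of some regulators disagreed, as was seen only after their values were known. YAK1, a kinase that favours the stress factors, had probe sets at 0.08, 0.92 and 1.23, of which only the last passed (adjusted p = 0.0162). The one at 0.92 (adjusted p = 0.0503) has the highest mean and stood for the gene. CYR1, adenylate cyclase, had 5 tested probe sets from -1.23 to 2.00, of which the one at 2.00 passed (adjusted p = 0.00257). IRA2, a brake on Ras, had 1 at 2.38 that passed (adjusted p = 0.0129) and 1 at 0.17 that did not.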
